A study of Mus musculus with 14 samples.

Results

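Tail-to-tail sites are places where a transcript read from the + strand and a transcript read from the - strand end close to each other, with their 3′ ends facing. They were found by merging overlapping or touching intervals of the same strand over 14 libraries, keeping autosomal sites with 20 or more tags in 2 or more libraries, and taking each + and - site whose positions lay 500 nt or less apart. This gave 542 pairs, formed by 941 of the 17912 kept sites (479 on the + strand and 462 on the - strand). In 173 pairs the + position lay beyond the - position, so that the transcript ends overlapped, and in 369 pairs there was a gap (3 of these had both positions at the same nucleotide). The pairs fall into 406 loci, 305 of them with 1 pair and the others with up to 4 pairs that share a site, so pairs are not independent of each other. The members were chosen by their tag counts and by the distance of their positions, so the presence, level and spacing of these sites are given as a description.

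The libraries are 3P-seq, a method that sequences the 3′ ends of polyadenylated RNA and so reports where, on which strand and how often transcripts end. Heart, muscle, liver, lung, white adipose (wat in the labels) and kidney were each sampled from a wild-type mouse and from a miR-22 knockout mouse, all of the 129S5/SvEvBrd background, and 2 more libraries come from mESC (mouse embryonic stem cells) and from 3T3, a mouse fibroblast line. Age, sex and the number of animals are not given in the sources used here. No group was replicated, so the 2 genotypes of a tissue stand in for replicates in the tests, and mESC and 3T3 enter no test. Total tags ran from 2036838 in knockout adipose to 6010465 in knockout lung. Positions are in build mm9 as deposited. No gene annotation of that build was used here, so sites are named by chromosome, strand and position, the tissue of a library could not be checked against marker genes, and which genes end at a pair is not stated.

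Polyadenylation cuts the nascent transcript at a poly(A) site and adds the tail, and many genes have several such sites. Where 2 genes converge, both polymerases run toward the same stretch of DNA, and if each transcript extends past the other's end the mature RNAs share a stretch of complementary sequence. Sites of 1 gene on the same strand, by contrast, are alternative ends of the same transcription unit.

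Pairs were densest where the ends almost met. Gaps of over 100 to 500 nt held 65 pairs per 100 nt, gaps of 0 to 100 nt held 108, overlaps of 1 to 100 nt held 101, and overlaps of over 100 to 500 nt held 18. Farther out the same asymmetry was seen, with 33.6 pairs per 100 nt at gaps of over 500 to 5000 nt and 5.89 at overlaps of the same range. The median overlap was 88 nt and the median gap was 194 nt.

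**Figure D1:**
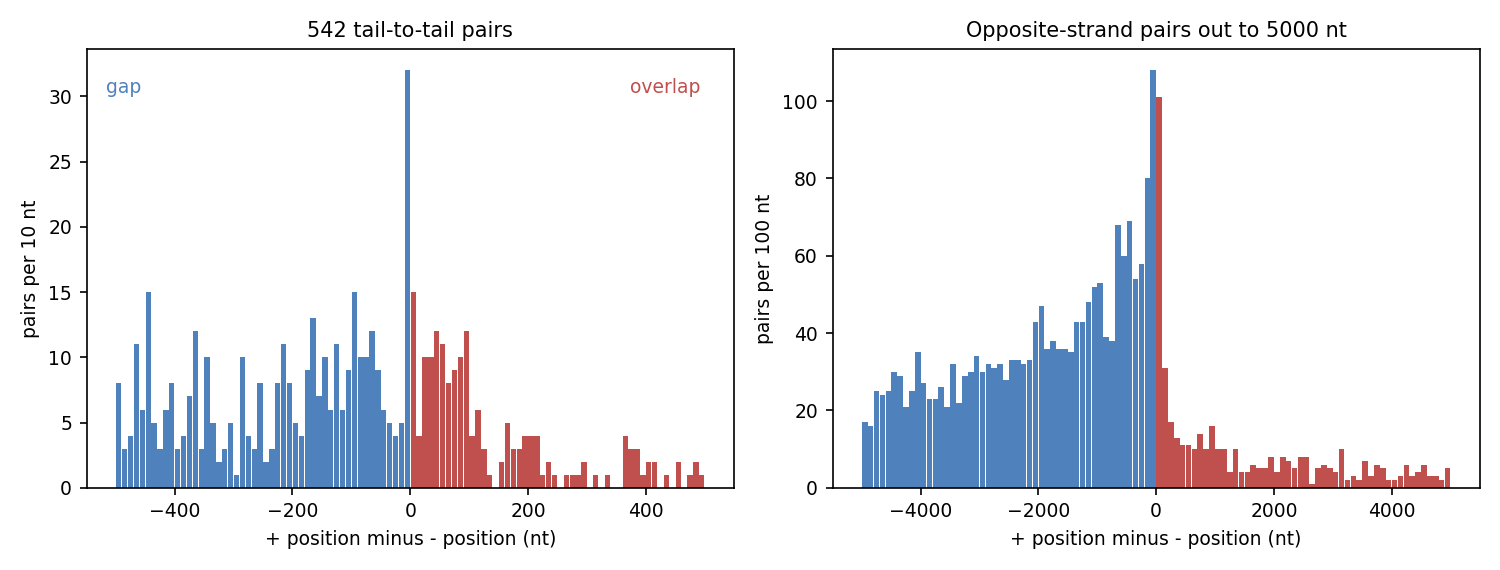
Left, the 542 pairs counted per 10 nt of the + position minus the - position; right, opposite-strand pairs counted per 100 nt out to 5000 nt on each side; negative values (blue) are gaps and positive values (red) are overlaps. The counts peak next to 0 and are lower on the overlap side beyond 100 nt.

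A group of 48 pairs had positions 10 nt or less apart, which is 229 pairs per 100 nt, against 50 at gaps of 11 to 50 nt and 90 at overlaps of 11 to 50 nt. In 30 of these 48 the + position came first and in 15 the - position came first. They lay on 16 chromosomes. The + site had more tags in 27, and the stronger site exceeded the weaker by a median of 2.92 times (from 1.11 to 113 times). With the outermost 3′ end of each merged site as its position in place of the most used one, 18 pairs were this close, so the crowding next to 0 depends on taking the most used end as the position. In these pairs the mapped intervals of both strands lie within 36 nt of each other.

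The closest pairs were not balanced. On chromosome 4 both positions were 100824972, with the - site at 503 CPM (the tag count divided by a library size with TMM factors) in wild-type muscle and 412 CPM in the knockout and the + site at 1.07 and 2.29. In mESC the order turned, with 30.7 CPM on the + strand and 4.39 on the - strand. On chromosome 17 both positions were 56240018, with the - site at 18.7 and 42.7 CPM in wild-type and knockout adipose and at most 5.32 in the other 10 tissue libraries, while the + site there was at 2.66 and 4.02. Thus the + site held most of the pair's tags in 10 tissue libraries and the - site in both adipose libraries. Tags were summed over each merged interval, so use of the single nucleotide in a library was not measured. The - site was kept only through the 2 adipose libraries, so these values are a description. On chromosome 2 both positions were 130972053, with the - site at 339 and 652 CPM in adipose and the + site at 13.0 and 118.

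Sites in pairs were somewhat more abundant and more widely detected than the other kept sites. Their median was 12.1 CPM against 9.26 for the other 16971 kept sites, and 17.2% against 12.3% had 20 tags in 14 libraries. Within the pairs, sites with an overlapping partner had a median of 9.15 CPM and sites with a gap 14.7 CPM. The weaker site of a pair carried a median of 23.3% of its tags in overlapping pairs and 19.6% in pairs with a gap. Within single libraries that median was higher in overlapping pairs in 14 of 14. Over pairs of both classes, the median within a library lay between 11% and 16.7% in the tissues and was 6.52% in mESC and 6.38% in 3T3. A site could be kept through both libraries of a tissue alone, but not through mESC alone or 3T3 alone. The lower medians of mESC and 3T3 may thus be partly set by the rule for keeping sites. How far this was so was not tested, and these medians are a description.

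The most abundant pairs, ranked by their weaker site, show how the partners are used across tissues. On chromosome 17 the + site at 23961702 and the - site at 23961710, separated by 8 nt, both had 20 tags in 14 libraries. The - site was at 636 and 413 CPM in wild-type and knockout heart and at 854 and 524 in muscle, while the + site was at 67.2 and 140 in heart and 131 and 148 in muscle. In mESC and 3T3 the + site stood at 1880 and 1350 CPM and the - site at 129 and 294. The - strand carried 90.4% and 74.7% of the pair's tags in heart and 6.43% in mESC, and over 14 libraries the levels of both ran against each other (Spearman's rho -0.525). The balance was shifted toward the - site in heart (adjusted p 0.000282) and muscle (adjusted p 0.0006, edgeR's quasi-likelihood test of each tissue against the other 5, with p adjusted over 2003 opposite-strand pairs).

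On chromosome 2 the + site at 26448200 and the - site at 26448609 had a gap of 409 nt. The - site was at 2990 and 1940 CPM in wild-type and knockout adipose and 1190 and 839 in liver, and between 31.1 and 186 in the heart, muscle, lung and kidney libraries. The + site was highest in lung, at 545 and 653 CPM, and stood at 431 and 352 in heart and 123 and 368 in adipose. The balance moved toward the - site in adipose (edgeR adjusted p 8.19e-08) and liver (adjusted p 2.54e-10).

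A second pair on chromosome 2 had overlapping ends, with the + site at 164665081 lying 61 nt beyond the - site at 164665020. The + site was present throughout, between 115 and 452 CPM in the 12 tissue libraries and at 522 in mESC and 398 in 3T3. The - site was at 340 and 422 CPM in wild-type and knockout adipose and at 156 and 304 in lung, but at 6.44 and 9.61 in liver, 7.85 and 4.90 in kidney, 9.45 in mESC and 4.72 in 3T3. Its balance moved toward the - site in adipose (edgeR adjusted p 4.89e-11) and toward the + site in liver (adjusted p 3.25e-10) and kidney (adjusted p 1.59e-10). The + site thus had a much narrower range over the tissues than its partner.

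On chromosome 5 the + site at 77778348 lay 81 nt beyond the - site at 77778267. The - site reached 676 and 715 CPM in wild-type and knockout kidney and was between 36 and 217 in the other 10 tissue libraries. In mESC and 3T3 it fell to 2.36 and 1.11 CPM, where the + site was highest at 602 and 439. The kidney shift toward the - site passed the test (edgeR adjusted p 3.11e-05), and mESC and 3T3, with 1 library each, were not tested.

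On chromosome 10 the + site at 126733339 and the - site at 126733277 overlapped by 62 nt and both had 20 tags in 14 libraries. The + site was at 104 and 105 CPM in lung and the - site at 41.1 and 36.1, whereas in muscle the + site was at 35.2 and 27.5 and the - site at 106 and 125. On chromosome 7 the + site at 140912820 lay 195 nt beyond the - site at 140912625, both again with 20 tags in 14 libraries. There the + site was at 612 CPM in mESC and 84.4 in 3T3, and the - site at 53.7 and 7.50.

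**Figure D2:**
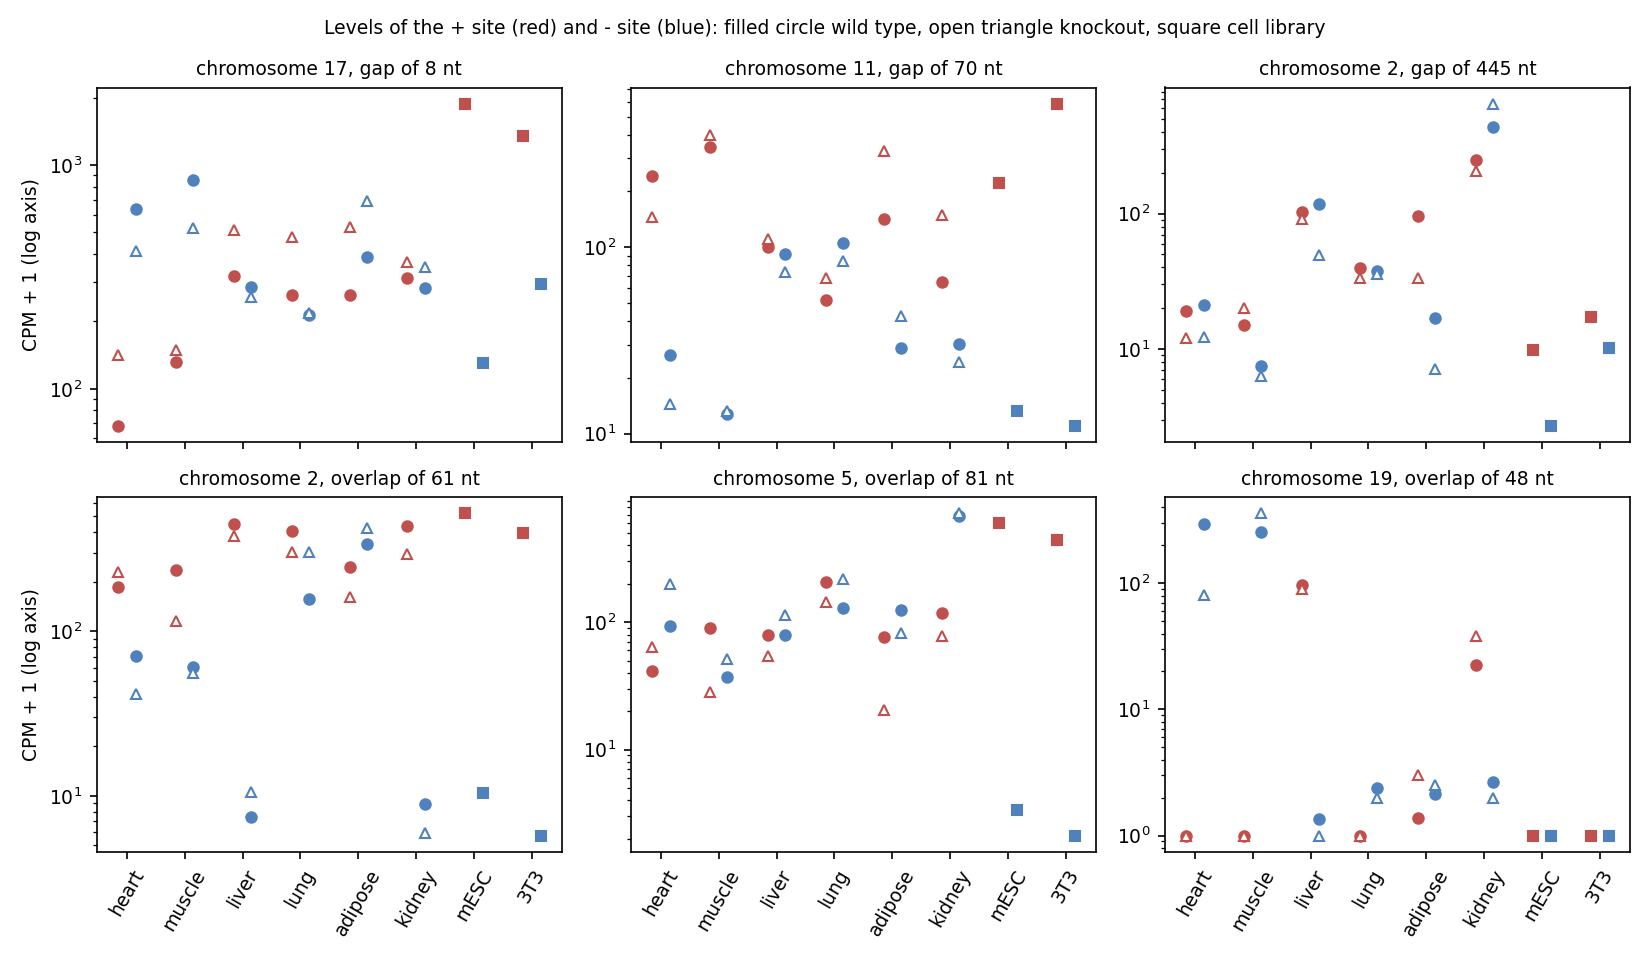
CPM plus 1 on a log axis for the + site (red) and the - site (blue) of 6 pairs, with 1 point per library (filled circle wild type, open triangle knockout, square mESC or 3T3). On chromosome 17 the order of the strands in heart and muscle is the reverse of that in mESC and 3T3, and on chromosome 19 no library has both sites at 20 tags.

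Across all pairs the partners varied with little relation to each other. The median Spearman's rho over 14 libraries was -0.0066 in overlapping pairs (86 of 173 above 0) and 0.0697 in pairs with a gap (208 of 369 above 0), beside 0.055 in 1778 opposite-strand pairs more than 500 and up to 5000 nt apart. Same-strand neighbours 36 to 500 nt apart had a median of 0.653, and 93.1% of these 2499 were above 0. Among pairs whose weaker site had a mean of 20 CPM or more, the medians were 0.088 for 74 tail-to-tail pairs, 0.037 for 192 distant opposite-strand pairs and 0.772 for 239 same-strand neighbours. All of these share the same libraries, and the 2 libraries of 1 tissue resemble each other, so no p-value is attached. Scaling by total tags raised the medians to 0.158, 0.152 and 0.71 for the 3 kinds of pair, and that of overlapping pairs turned from -0.0066 to 0.14.

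**Figure D3:**
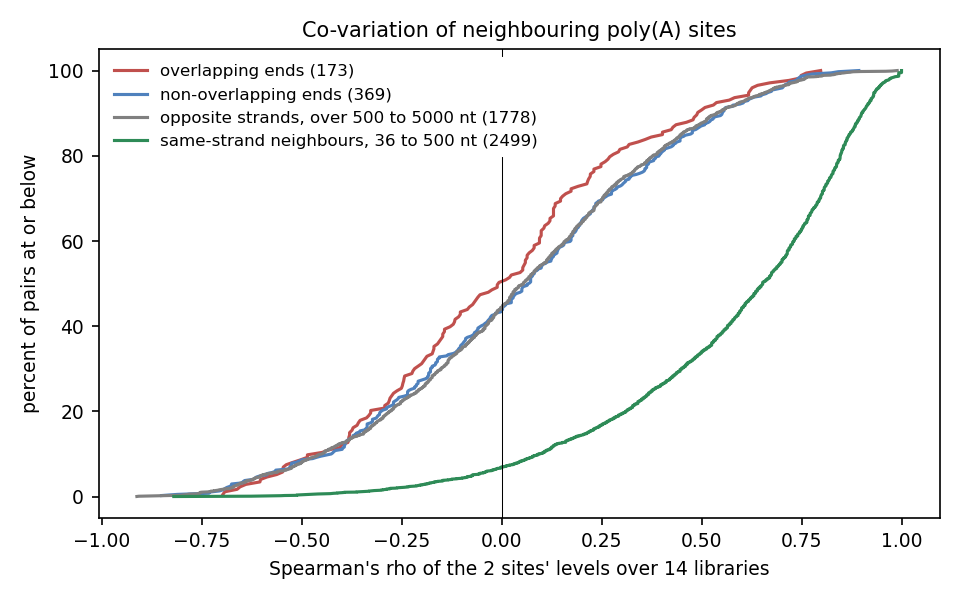
Cumulative percent of pairs against Spearman's rho over 14 libraries for overlapping ends, non-overlapping ends, distant opposite-strand pairs and same-strand neighbours. The 3 opposite-strand curves rise around 0 and the same-strand curve lies to the right, with a median of 0.653.

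Within the overlapping pairs the median was 0.0813 at overlaps of 1 to 10 nt (9 of 15 above 0). It was -0.136 at 11 to 50 nt (14 of 36) and -0.16 at 51 to 100 nt (19 of 50). Wider overlaps had 0.117 at over 100 to 200 nt (22 of 31) and 0.0528 at over 200 to 500 nt (22 of 41). These windows were not redone with scaling by total tags. Only 12 overlapping pairs had a mean of 20 CPM or more at both sites, so most of these values rest on sparse counts. A rho of 0.7 or more was seen in 21 pairs (3.87%), against 45.0% of same-strand neighbours. The highest level of both sites fell in the same one of the 6 tissues or 2 cell libraries in 13.5% of pairs, 14.3% of distant opposite-strand pairs and 57.4% of same-strand neighbours.

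Pairs at either end of that range were chosen for their rho, which is therefore a description. On chromosome 11 the + site at 106124430 and the - site at 106124500, with a gap of 70 nt, had a rho of -0.811. The + site was at 341 CPM in wild-type and 396 in knockout muscle and at 586 in 3T3, where the - site was at 12.2 CPM or less. In lung the order was the reverse, with the + site at 51.1 and 67.6 CPM and the - site at 104 and 83.1. On chromosome 4 the + site at 128986622 had a - partner at 128986759, 137 nt away, and a second one at 128986629. The + site was highest in muscle at 105 and 51.9 CPM, where the first - partner was lowest among the tissues at 72.1 and 101. In liver the + site was at 0.358 and 0.400 CPM and that - partner at 583 and 399.

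The opposite pattern was seen on chromosome 2, where the + site at 155388477 and the - site at 155388922 both peaked in kidney (rho 0.824). The + site was at 248 and 207 CPM in wild-type and knockout kidney and at most 101 in the other 10 tissue libraries, and the - site was at 436 and 650 in kidney and at most 117 in the others. On chromosome 9 the sites at 121692936 (+) and 121693137 (-) were both confined largely to muscle and heart. The + site was at 622 and 665 CPM in muscle and 123 and 65.8 in heart, the - site at 299 and 243 in muscle and 229 and 167 in heart, and all other libraries lay at or under 4.21 CPM.

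Tissue calls were then compared with those of all 23856 sites tested in the same edgeR fit, calling a site at a Benjamini-Hochberg adjusted p under 0.05 and a 4-fold difference between a tissue and the mean of the other 5. Of 926 pair sites tested, 351 were higher in 1 or more tissues, which is 37.9%, against 49.1% of all sites tested. Another count, of sites lower in 1 or more tissues, gave 240 (25.9%) against 26.4%, and 410 were higher or lower (44.3%) against 54.9%. A site that was kept only through the libraries of 1 tissue was kept partly for its tags there. Those tags depend on its level and on the depth of the libraries. Of pair sites 27.0%, against 35.6% of the other kept sites, reached 20 tags in 3 or fewer libraries. Liver gave 98 higher sites (10.6%, all sites 13.8%), lung 96 (10.4%, all sites 12.5%), kidney 94 (10.2%, all sites 13.8%), heart 65 (7.02%, all sites 9.15%), adipose 61 (6.59%, all sites 8.65%) and muscle 57 (6.16%, all sites 8.61%). Each of the 6 shares lay below that of all sites, and the difference was not tested. The 23856 sites were not held to 20 tags in 2 libraries as pair sites were, so the shares rest on unlike sets. With no filter on the tested sites, 427 of 941 pair sites were higher or lower in 1 or more tissues, against 18.6% of all. The order of the shares thus depended on the filter. Sites lower in a tissue came to 90 in liver (9.72%, all sites 9.88%), 68 in muscle (7.34%, all sites 6.86%), 47 in lung (5.08%, all sites 4.71%), 38 in kidney (4.10%, all sites 4.07%), 29 in adipose (3.13%, all sites 3.39%) and 22 in heart (2.38%, all sites 2.98%), which is close to the background.

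Both sites of a pair were seldom called together. In 28 of 523 pairs with both sites tested (5.35%), both were higher in the same tissue, against 6.11% of distant opposite-strand pairs and 41.9% of same-strand neighbours. In 24 pairs (4.59%) 1 site was higher and the other lower in the same tissue, against 4.33% and 0.083%. In 246 pairs (47.0%) only 1 site of the pair was higher in any tissue, beside 47.0% of distant opposite-strand pairs and 12.9% of same-strand neighbours.

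The balance between strands was tested within pairs, where library size cancels, for 485 pairs of enough depth (154 of them overlapping). The balance was shifted in 1 or more tissues in 425 of them, 87.6% (134 overlapping pairs, 87.0%, and 291 with a gap, 87.9%), in an edgeR fit over these pairs. In a fit over all 2003 opposite-strand pairs out to 5000 nt, with p adjusted over all of them, 427 of the 485 were shifted, and 88.5% of the 2003. All p-values given for single pairs come from that wider fit. In 97 of the 485 pairs a site was kept only through the libraries of 1 tissue or cell type and so was kept partly for a difference. Without them 335 of 388 pairs were shifted (86.3%). Among same-strand neighbours fitted the same way, 19.4% of 1780 were shifted. The share of shifted pairs was thus close to that of opposite-strand pairs at any distance up to 5000 nt.

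Liver and lung had the most shifted pairs. In liver 132 pairs (27.2%) moved toward the - site and 101 (20.8%) toward the + site. Lung had 104 (21.4%) and 108 (22.3%), kidney 113 (23.3%) and 68 (14%), muscle 73 (15.1%) and 85 (17.5%), heart 60 (12.4%) and 64 (13.2%), and adipose 63 (13.0%) and 59 (12.2%). Of all 2003 opposite-strand pairs, 44.9% were shifted in liver, 43.8% in lung, 39.4% in kidney, 34.8% in muscle, 29.0% in heart and 25.4% in adipose, and in the same wider fit 47.0%, 43.5%, 37.5%, 33.6%, 26.0% and 25.2% of the 485 tail-to-tail pairs. The fit over the 485 pairs alone gave 48.0%, 43.7%, 37.3%, 32.6%, 25.6% and 25.2%. With 1 library of the tissue left out, the counts fell to 71 (wild type out) and 77 (knockout out) in heart, 58 and 53 in adipose, and 97 and 109 in kidney, to 74 in muscle and 149 in liver with the wild type out. In all, 60 pairs were shifted in no tissue, 112 in 1, 131 in 2, 100 in 3, 59 in 4, 18 in 5 and 5 in 6.

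**Figure D4:**
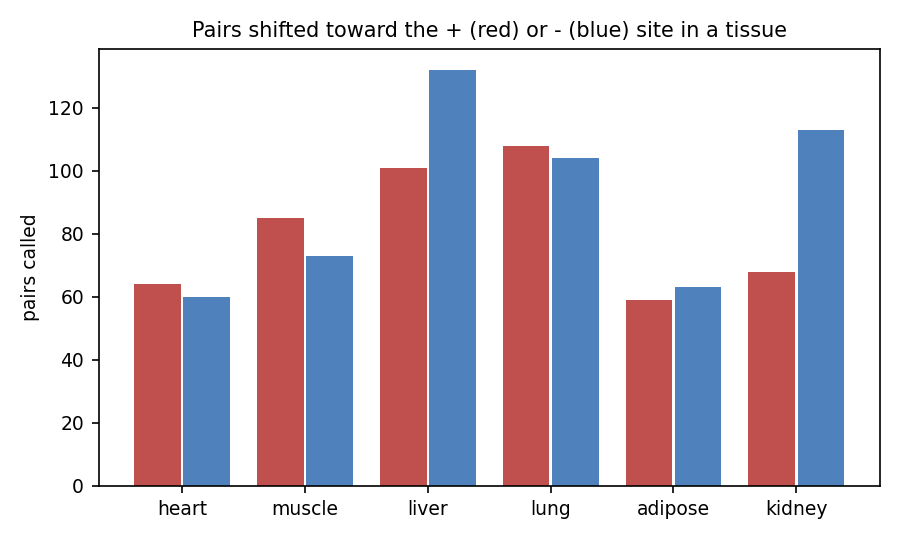
Number of the 485 tested pairs shifted toward the + site (red) or the - site (blue) in each tissue against the mean of the other 5, at an adjusted p under 0.05. Liver has the most, with 132 toward the - site and 101 toward the + site.

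The largest shifts came from pairs with 1 site that was nearly restricted to a tissue. On chromosome 7 the - site at 133589371, overlapped by 42 nt by the + site at 133589413, was at 15500 CPM in wild-type and 9560 in knockout muscle, 33.1 and 22.6 in adipose, and at most 0.688 in the other 8 tissue libraries. Its + partner stayed between 2.15 and 19.6 CPM throughout the tissues. On chromosome 19 the - site at 4861219 was at 10800 CPM in both muscle libraries and the + site at 4860910, 309 nt away, at 18.8 and 34.7. In these 2 pairs muscle stood apart from every other tissue while the partner did not follow. The - site at 133589371 reached 20 tags only in muscle and adipose. The one at 4861219 did so only in muscle, adipose and mESC, so no p-value is given for either pair.

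Heart and liver gave the same picture on the + strand. On chromosome 4 the + site at 129992701 reached 35300 and 20000 CPM in wild-type and knockout heart and 2340 and 2900 in muscle, and the - site at 129993146, 445 nt away, stayed between 5.20 and 22.2 CPM in the tissues (edgeR adjusted p for heart 6.97e-18). On chromosome 1 the + site at 162932669 was at 7620 and 6500 CPM in liver, 37.9 and 47.7 in kidney and at most 4.02 in the other 8 tissue libraries, while its - partner at 162933053, with a gap of 384 nt, was between 4.40 and 35.6 (adjusted p for liver 4.3e-35). In kidney the - site at 61486350 on chromosome 11, 67 nt from the + site at 61486283, was at 186 and 194 CPM and at most 3.58 in the other 10 libraries. That - site was kept only through the 2 kidney libraries, so these values are a description and no p-value is given.

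Lung gave shifts of both kinds, with the lung-high site as the minor or the main site of its pair. On chromosome 10 the - site at 75400465, overlapped by 25 nt by the + site at 75400490, was at 25.8 and 21.9 CPM in lung and at most 5.53 in the other 10 tissue libraries. Its + partner was lowest in lung, at 251 and 375 CPM, and reached 10700 and 6100 in muscle. The - site was kept only through the 2 lung libraries, so this too is a description. On chromosome 6 the + site at 145165055 was at 2.24 and 1.97 CPM in lung, with the - site at 145165220 at 127 and 108. Elsewhere in the tissues that - site lay between 13.8 and 36.4 CPM (adjusted p for lung 6.9e-17).

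Some pairs exchanged their main strand between tissues. With 80% or more of the tags on the - site in both libraries of 1 tissue and 20% or less in both libraries of another, each with 20 or more tags, 54 of 527 pairs measured in 2 or more tissues did so (10.2%, 16 of 166 overlapping and 38 of 361 with a gap). The share was 11.9% in 1684 distant opposite-strand pairs and 0.0942% in 2124 same-strand neighbours. The 54 include pairs with a site kept only through the libraries of 1 tissue, and so kept partly for a difference. Their exchange is partly set by the rule, and a count without them was not made. The 54 pairs lay in 45 loci. Lung was on either side of the exchange in 42 of the 54 pairs, liver in 41, kidney in 31, muscle in 25, heart in 23 and adipose in 19. A tissue could count only where the pair had 20 or more tags in both its libraries. That held for 534 pairs in lung, 469 in liver, 484 in kidney, 353 in muscle, 411 in heart and 434 in adipose. The counts were not scaled for this.

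The most abundant of them, on chromosome 17, had its + site at 46862488 and its - site at 46862617. The - site held 93.8% and 91.7% of the tags in wild-type and knockout liver, 30.6% and 46.4% in kidney and at most 4.0% in the other 8 tissue libraries (edgeR adjusted p for liver 8.92e-26). On chromosome 15 the - site at 78270103 held 99.6% in both liver libraries, and the + site at 78269716 was the main one elsewhere. The liver level of that - site was 2090 and 1850 CPM, and the + site peaked in adipose at 288 and 452, so each strand had its own tissue.

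On chromosome 1 the direction was the reverse, with 11.4% and 6.4% on the - site at 173149346 in liver and at least 95.5% in the other 10 tissue libraries (+ site at 173148974, which was kept only through the 2 liver libraries, so no p-value is given). Ends that almost touched did this too. On chromosome 10 the + site at 128395337 and the - site at 128395339 lay 2 nt apart, and the - site held 99.1% and 96.7% in liver, 96.5% and 95.3% in kidney, at most 3.6% in adipose and 0.0% in heart, muscle and lung. The same + site formed a pair with a second - site at 128395756, which was at 167 and 115 CPM in liver.

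The overlapping pair on chromosome 19 with the + site at 56394577 and the - site at 56394529 was, by its weaker site, the most abundant overlapping one of the 54. Its - site was at 295 and 80.2 CPM in wild-type and knockout heart and 253 and 358 in muscle, where the + site had no tag. In liver the + site was at 95.9 and 89.7 CPM and the - site at 0.358 and 0.0. The + site reached 20 tags only in the liver and kidney libraries and the - site only in those of heart and muscle. These values are thus a description and no p-value is given. Although the 2 transcript ends overlapped by 48 nt, no library held 20 tags of both.

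**Figure D5:**
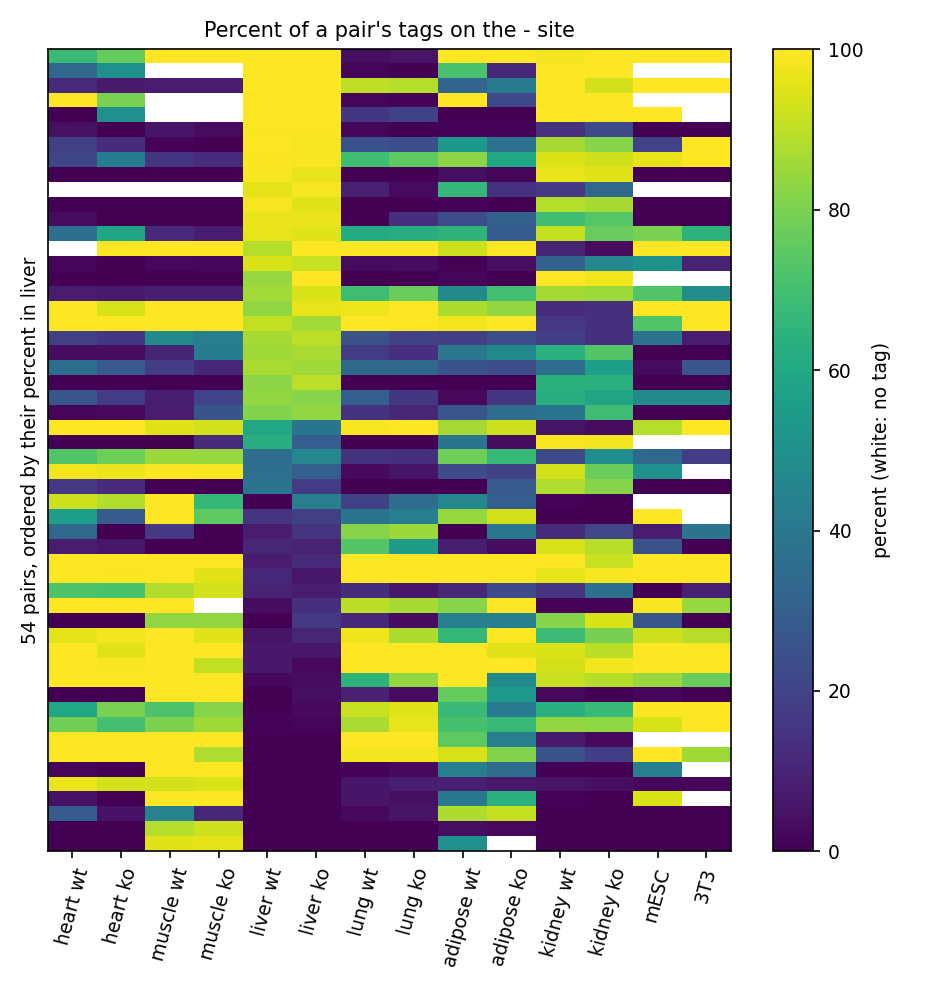
Percent of a pair's tags on the - site for the 54 pairs that exchanged their main strand, 1 row per pair and 1 column per library, ordered by the percent in liver. Both libraries of a tissue have similar shades, and liver is at the yellow or dark end in most rows while lung, heart and muscle are often at the other.

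The cell libraries differed from the tissues at some pairs. On chromosome 16 the + site at 87483755 was between 59.2 and 273 CPM in the tissues and at 11.1 in mESC and 11.9 in 3T3, whereas the - site at 87484120 was between 94.0 and 251 in the tissues and at 1090 and 2370. The - site held 39.7% to 78.6% of that pair's tags in the tissues and 99.0% and 99.5% in the cell libraries, a larger share of the same strand against most tissues. On chromosome 3 the - site at 36464899 was at 359 CPM in mESC and 330 in 3T3 and at most 2.92 in the 12 tissue libraries, with the + site at 36464646 between 4.58 and 30.7. On chromosome 11 the - site at 69823690 was between 54.2 and 1720 CPM in the tissues and at 6.08 in mESC, where the + site at 69823610 was at 82.7. These libraries have no replicate.

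Knockout of miR-22, a microRNA, was set against wild type over the 6 tissues. Of the 926 pair sites, 1 passed an adjusted p of 0.05 (lower in the knockout; 0 were higher), against 0.344% of all 23856 sites (0.0671% lower and 0.277% higher). An unadjusted p under 0.05 was found for 61 (6.59%), against 6.97% of all. It was the + site at 107583611 on chromosome 9, which was found almost only in liver, at 93.0 CPM in wild type and 11.2 in knockout, with under 1 CPM in the other libraries (263 and 29 tags over the wild-type and knockout tissues). The log2 difference was -2.69 (edgeR adjusted p 0.0190). Its - partner at 107583830 was at 6.08 and 7.21 CPM in the same libraries. The call rests on these 2 libraries: without wild-type or knockout liver the adjusted p was 0.992 or 0.995, and with DESeq2 it was 1.0 with a log2 difference of -0.73. Leaving out 1 library at a time gave 0 called pair sites without either liver library, 3 without either muscle library and 1 or 2 without any other.

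No pair was called for a change of strand balance with genotype over the tissues. A change confined to some tissues was not tested, and the absence of a call does not show that the balance stayed the same. In the edgeR fit 0 of 485 pairs passed an adjusted p under 0.05 (0.0%), DESeq2 also gave 0, and 42 had an unadjusted p under 0.05 (8.66%). In the fit over 2003 opposite-strand pairs 0.349% passed, none of them tail-to-tail. The median share of the weaker site was 13.6% in wild type and 14.4% in knockout, as means over 6 tissues, and was higher in knockout in 4 of them.

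Pair sites held 6.67% ± 0.450 (SD, n = 2) of the autosomal tags in heart, 5.79% ± 0.0175 in kidney, 5.73% ± 0.0984 in muscle, 4.73% ± 0.345 in lung, 4.55% ± 0.152 in liver and 4.23% ± 0.307 in adipose. The heart value was set by 1 site: the + site at 129992701 on chromosome 4 alone took 2.59% and 2.03% of the autosomal tags of wild-type and knockout heart. Without its pair, heart stood at 4.36% ± 0.0536 and kidney was highest at 5.75% ± 0.0145. By genotype the share was 5.27% in wild type and 5.30% in knockout.

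The limits of the rule cut through a continuum. The widest pairs inside it were 499 nt apart on chromosome 1 (+ site 75364287, - site 75364786) and 498 nt apart on chromosome 11 (+ site 23389735, - site 23390233), with a rho of 0.89 and 0.48. The first beyond it were 502 and 505 nt apart, both on chromosome 2 (+ sites 112202663 and 132691886), with a rho of -0.275 and 0.0092. For the tags, 43 pairs had a weaker site whose second highest library lay at 20 to under 22 tags, and 43 more pairs would enter at 18 to under 20.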

How the data were processed

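Each library came with a list of poly(A) sites; the deposited values are estimated counts of tags per interval and strand, not scaled by the authors, and 1.21% to 5.79% of them are not whole, per the files' values. Reads were called with CASAVA 1.7 and aligned with Bowtie to mm9, per the submitters' processing notes, and no source used here says how sites were built from reads. The track lines carry an offset of 1 that was left unapplied; a browser may draw positions 1 nt away.

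Intervals were merged over libraries and a site's position was the 3′ end of its interval with most tags. CPM used TMM factors over kept autosomal sites, and rho used log2(CPM + 1). Counts were rounded and tested with edgeR 4.0.16 in R 4.3.3 (quasi-likelihood, terms for tissue and genotype, filterByExpr with a minimum count of 10). The fit used 12 tissue libraries, with 5 residual degrees of freedom. Its p-values rest on how the difference between the 2 genotypes varied from tissue to tissue, not on replicate animals. Strand balance was fitted on 2 columns per library with a term for each library, for pairs whose sites were both tested and whose summed tags were 20 or more in 6 or more tissue libraries. A fit over all opposite-strand pairs out to 5000 nt, and a count without pairs that had a site kept only through 1 tissue or cell type, were added after seeing the data. DESeq2 1.42.0 was an alternative. Scripts were checked on simulated data.

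Pairs are named by abundance, by the highest and lowest rho at a mean of 20 CPM or more, by the largest tissue shifts with both libraries beyond the other 10, by closeness, by mESC and 3T3 levels, and by exchange of the main strand; examples within these lists, and the pairs that exchange strands, were chosen after their values were seen. Members and lists were chosen with earlier results of these data known, so no p-value is given for sums over the members. Kept sites held 94.0% to 97.5% of a library's autosomal tags. Sex chromosomes and mitochondrial sites were left out by the rule.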

Additional observations from a re-analysis of the deposited data

How the results depend on the processing

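Samples could be paired only by tissue, as wild type and knockout, which the fits already hold together by the tissue term. The labels carry no replicate numbers to pair samples by otherwise. Requiring 50 tags left 247 pairs (24.7% overlapping), 20 tags in 6 libraries 177 (24.3%), at most 200 nt 321 (41.1%), and pairs without intervals within 36 nt of each other 347 (15.0%); 1 pair per locus gave 27.6% and outermost ends 41.6% overlapping. Median rho of overlapping and gap pairs was 0.0813 and 0.141 with 6 libraries, and 0.140 and 0.178 with scaling by total tags. Leaving out each library gave -0.0462 to 0.00549 and 0.0385 to 0.0824. Without intervals within 36 nt, 267 pairs were shifted (heart 81, liver 149, lung 128, adipose 78, kidney 117), from fewer pairs tested. Leaving out each library gave 388 to 414 shifted pairs: heart 71 to 126, muscle 74 to 156, liver 149 to 230, lung 159 to 206, adipose 53 to 121 and kidney 97 to 173. Of 374 alternatives of the 24 named tissue shifts, 371 kept the call, 3 lost it and 0 turned. These shifts were picked as the largest called ones, and some have a site kept only through that tissue. A kept call was thus likely beforehand. Pair sites called by genotype numbered 3 with DESeq2, 0 without a filter and 0 to 3 with a library left out. Pairs 10 nt or less apart numbered 18 with outermost ends and 28 at 50 tags, and strand exchanges 84 at 70% and 30% limits and 55 to 62 with a library left out. Both of these settings loosen the rule for an exchange, so the number of exchanges could not fall. Differences in tag share, in percentage points, turned for lung (0.0879, all tags), heart (-0.313 at 50 tags, -0.600 without the chromosome 4 pair), liver (0.102 at 50 tags) and genotype (-0.000900 at 50 tags). The cause of these changes was not tested. Sites near 20 tags carry a large counting error, and with 1 library per group no spread within a group could be measured.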
